A study of Saccharomyces cerevisiae with 10 samples.

Results

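The genes described here are those of budding yeast whose transcript level lay on the same side of wild type (WT) in every culture of 4 strains that each overexpress a different essential gene. Of 5824 features in the expression table, 5768 had a mean of at least 1 FPKM (fragments per kilobase of feature, scaled to a common number of fragments per library) and were compared. A gene was kept when all 8 overexpression cultures lay above both WT cultures, or all 8 below both. This kept 549 higher genes, 9.52% of the features compared, and 867 lower genes, 15.03%, so that 1416 genes were kept and 4352 were not. These shares are fixed by the rule and are the background against which each gene list below is read.

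The LSM5-OE strain, the TIF35-OE strain, UTP6-OE and also PRP22-OE each held an extra copy of the named gene, with its own promoter and terminator, on a centromeric plasmid of low copy number marked with URA3. The host was the MATa haploid BY4741, and each strain came from a single transformant colony. The WT strain was BY4741. For the lifespan assays WT carried the empty vector, and whether it did for the RNA is not given in the sources used here. Each of the 5 strains was grown as 2 independent, untreated cultures in medium without uracil with 2% glucose and collected at an OD600 of 0.4. The overexpression strains were chosen by the study for a longer replicative lifespan, and the comparison asks which transcripts they share. Fold differences are given on log2(FPKM + 0.5) as the mean over the 4 strains minus WT, with the SD over the strains (n = 4, each strain counted once).

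The 4 plasmid genes act at different steps of the making of proteins. LSM5 encodes a subunit of the Lsm rings, which bind the ends of RNA in splicing and in mRNA decay, and PRP22 a helicase that releases mRNA from the spliceosome. UTP6 belongs to the complex that matures the RNA of the small ribosomal subunit, and TIF35 is a subunit of translation initiation factor eIF3. Yeast growing on ample glucose ferments it and represses genes for respiration, for other carbon sources and for reserve carbohydrate, and the stress factors Msn2 and Msn4, the glucose repressor Mig1 and the amino acid regulator Gcn4 are well-known controllers of such genes.

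The promoters of 6 kept genes are shown because they hold the known words of these 3 kinds of regulator, or none of them. Each run is 300 bases of the R64 RefSeq assembly of S288C, read 5′ to 3′ on the strand of the gene and ending 100 bases before the start codon. Capitals mark AGGGG, the stress response element, the Mig1 words GCGGGG or GTGGGG or CCGGGG or CTGGGG, and the Gcn4 word TGACTC, on either strand, so that a reverse match reads CCCCT or CCCCAC, for example. A Mig1 word can overlap a stress element. The windows are chrVI:176492-176791 for GSY1, chrXIII:477707-478006 for PGM2, chrVI:255150-255449 for HXK1, chrVIII:288912-289211 for HXT4, chrIII:68434-68733 for HIS4 and chrXII:238914-239213 for YLR046C, all on the minus strand.
GSY1: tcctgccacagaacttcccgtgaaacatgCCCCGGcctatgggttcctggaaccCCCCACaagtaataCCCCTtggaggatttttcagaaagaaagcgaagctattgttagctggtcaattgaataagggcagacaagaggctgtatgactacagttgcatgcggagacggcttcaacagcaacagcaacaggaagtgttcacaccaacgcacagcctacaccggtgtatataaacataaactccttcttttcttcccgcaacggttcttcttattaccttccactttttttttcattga
PGM2: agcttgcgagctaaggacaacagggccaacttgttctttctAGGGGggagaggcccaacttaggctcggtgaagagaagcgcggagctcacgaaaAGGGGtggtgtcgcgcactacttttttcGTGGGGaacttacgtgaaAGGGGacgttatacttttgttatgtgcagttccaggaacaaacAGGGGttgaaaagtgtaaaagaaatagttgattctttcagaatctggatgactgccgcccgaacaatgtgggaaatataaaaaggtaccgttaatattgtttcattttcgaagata
HXK1: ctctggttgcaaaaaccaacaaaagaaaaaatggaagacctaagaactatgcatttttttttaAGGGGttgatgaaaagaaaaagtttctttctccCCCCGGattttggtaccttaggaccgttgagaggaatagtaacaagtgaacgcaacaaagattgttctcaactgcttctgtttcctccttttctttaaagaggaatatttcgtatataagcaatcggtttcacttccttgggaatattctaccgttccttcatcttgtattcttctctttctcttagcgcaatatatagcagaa
HXT4: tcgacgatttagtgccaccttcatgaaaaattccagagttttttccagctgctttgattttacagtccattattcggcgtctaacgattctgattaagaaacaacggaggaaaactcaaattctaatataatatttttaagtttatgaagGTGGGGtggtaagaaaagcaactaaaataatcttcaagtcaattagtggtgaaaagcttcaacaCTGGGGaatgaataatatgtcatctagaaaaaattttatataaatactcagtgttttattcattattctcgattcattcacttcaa
HIS4: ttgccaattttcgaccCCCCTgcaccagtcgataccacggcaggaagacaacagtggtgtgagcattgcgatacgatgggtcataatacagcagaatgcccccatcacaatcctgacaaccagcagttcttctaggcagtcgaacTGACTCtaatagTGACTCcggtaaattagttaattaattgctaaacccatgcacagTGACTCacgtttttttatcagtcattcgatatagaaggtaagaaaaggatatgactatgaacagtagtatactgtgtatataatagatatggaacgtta
YLR046C: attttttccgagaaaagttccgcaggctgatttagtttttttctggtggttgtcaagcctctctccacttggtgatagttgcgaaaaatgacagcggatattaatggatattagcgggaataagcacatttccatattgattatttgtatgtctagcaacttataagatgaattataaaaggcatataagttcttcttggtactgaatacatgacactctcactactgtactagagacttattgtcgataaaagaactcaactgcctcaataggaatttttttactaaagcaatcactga
PGM2 held 4 stress elements and 1 Mig1 word, GSY1 held 1 and 2, and HXK1 held 1 and 1. HXT4 held 2 Mig1 words and no stress element. HIS4, chosen after its values were seen, held 3 Gcn4 words and 1 stress element. None of these words was in the window of YLR046C, which was lower in every culture. Over all members with a promoter, the stress element was found in 35.6% of 545 kept higher genes and 20.6% of 863 kept lower genes, against 23.8% of all 5711 promoters. Mig1 words were found in 21.3% and 13.4%, against 14.8%, and the Gcn4 word in 15.0% and 6.49%, against 8.60%. The PAC core GATGAG, found at many ribosome assembly genes, was in 14.1% and 20.7%, against 18.2%, and the RRPE core GAAAATT in 16.5% and 17.8%, against 17.7%. A match is a description of the letters and not of a bound site.

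The differences were modest, and the median absolute log2 difference between the 2 cultures of a strain was 0.06 in WT and 0.08 to 0.12 in the overexpression strains. The median was 0.26 for the kept higher genes and -0.30 for the kept lower genes, against -0.06 for all features compared. A difference under 0.5 in size was found in 80.9% of the kept higher genes and 76.4% of the kept lower genes, and a difference over 1 in 16 and 41 genes. LSM5-OE lay nearest to WT for 63.2% of the kept lower genes and 38.6% of the kept higher genes, against 42.8% of all features. Its median difference was -0.19 over the kept lower genes, against -0.36 in TIF35-OE, -0.34 in UTP6-OE and -0.30 in PRP22-OE.

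**Figure D1:**
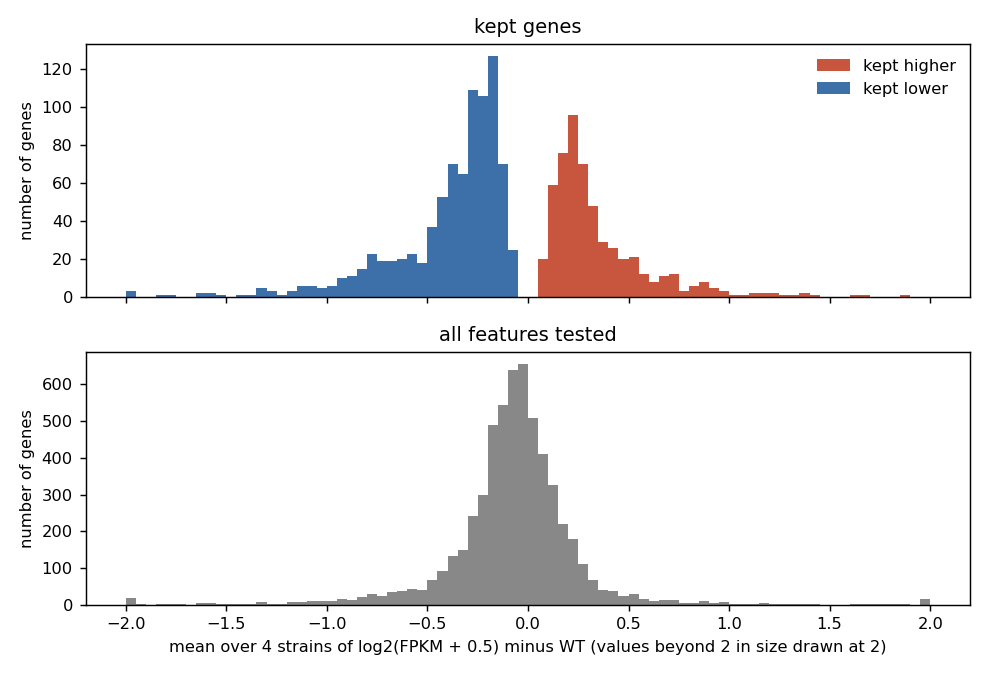
Number of genes by mean log2(FPKM + 0.5) difference over the 4 overexpression strains minus WT, for the 549 kept higher and 867 kept lower genes (top) and all 5768 features compared (bottom). The kept genes cluster within 0.5 of WT, and the space at 0 follows from the rule.

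A moderated test of the mean of the 4 strains against WT (limma on all 10 libraries, Benjamini-Hochberg adjusted p of at most 0.05) called 578 genes higher, 10.02% of those compared, and 985 lower, 17.1%. Below, "rose" and "fell" refer to these calls, and no p of this test is given for single kept genes because the rule used the same values. For the same reason the calls are no second line of support for the kept counts. They held 83.2% of the kept higher and 75.2% of the kept lower genes. Leaving out the first WT culture gave 240 and 341 calls, and leaving out the second gave 269 and 328. With one value per strain, 4 strains against 1, no gene passed (0 calls; lowest adjusted p 0.132 from limma). At an unadjusted p under 0.05, that fit held 284 higher and 279 lower genes, 9.76% of those compared. Over strains, the smallest two-sided exact permutation p for a single gene is 0.2. One pair of WT cultures served for every strain, so a difference shared by the strains and one particular to the WT cultures cannot be told apart. Kept genes numbered 1353 lower without the first WT culture and 839 higher without the second, and leaving out any culture can only add to the kept genes.

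Depth estimated from the spacing of low values was 13412000 to 17339000 fragments per library. Culture 1 of TIF35-OE, culture 1 of UTP6-OE and culture 2 of PRP22-OE gave libraries that stand apart, with an estimated fragment length of 279 to 280 bases, against 306 to 312 in the other 7, which include both WT libraries. Their RPS30A and RPS30B, both shorter than the fragments, were listed at 11285 to 20057 FPKM and at 0 in the others. Without these 3 libraries, TIF35-OE, UTP6-OE and PRP22-OE have 1 culture each. Call counts given below without them therefore differ from the main ones in the number of cultures as well as in fragment length. These cannot be told apart. The labelled MATa background held up in STE2, the alpha-factor receptor, at 419.6 to 611 FPKM in the overexpression cultures and 506 and 485 in WT, while the MATalpha gene STE3 was at 12.9 to 17.3 in all 10. HIS3, deleted in part in this background, was listed at 148 to 247 FPKM.

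The overexpressed genes were each highest in their own strain. TIF35 had 2121 and 2183 FPKM in TIF35-OE, against 834 and 829 in WT, UTP6 had 204 and 212 in UTP6-OE, against 80.5 and 85.9, and PRP22 had 43.3 and 44.5 in PRP22-OE, against at most 20.9. None of these 3 was kept. LSM5 was kept higher, with 865 and 1456 FPKM in LSM5-OE and 381 to 676 in the other 6 overexpression cultures, against 268 and 312 in WT. LSM5 is 282 bases long, shorter than most fragments. URA3, the plasmid marker, was kept lower, at 625 to 894 FPKM in the overexpression cultures, against 919.6 and 937 in WT. The gene, deleted from BY4741, was thus present and expressed in WT, which was also grown without uracil.

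Genes of reserve carbohydrate were among the groups with the largest share of higher members. Of 17 genes of glycogen metabolism, 11 were kept higher and 1 lower, and the same numbers rose and fell. The median difference of the list was 0.31. GSY1, one of the glycogen synthases, had 143 and 146 FPKM in LSM5-OE, 135 and 148 in TIF35-OE, 115 and 114 in UTP6-OE and 195 and 191 in PRP22-OE, against 54.3 and 53.2 in WT (1.43 ± 0.31). Every overexpression culture was more than double both WT cultures, and the order of the strains ran from UTP6-OE to PRP22-OE. PGM2, the main phosphoglucomutase, had 166 and 158, 167 and 179, 195 and 213, and 221 and 204 FPKM in the same strains, against 73.4 and 67.6 in WT (1.40 ± 0.19). GPH1, which breaks glycogen down, moved the same way as the synthases, with 74.98 to 103 FPKM in the overexpression cultures, against 39.95 and 34.6 in WT (1.24 ± 0.19). The member that was lower was PIG1, a regulatory subunit of the phosphatase Glc7 (-0.46). Of 9 genes of trehalose metabolism, 6 were kept higher and 6 rose, and none was lower. TPS2, the trehalose phosphate phosphatase, had 247 and 253 FPKM in LSM5-OE, 208 and 226 in TIF35-OE, 207 and 199.98 in UTP6-OE and 309 and 298 in PRP22-OE, against 172 and 173 in WT (0.48 ± 0.25). PRP22-OE was highest and UTP6-OE lowest for GSY1, TPS2 and TSL1 (0.54 ± 0.20), a subunit of the same complex. The order differed in other members. For DCS2, of the trehalose list, UTP6-OE was highest (0.95) and LSM5-OE lowest (0.58). The lowest strain was LSM5-OE for PGM2 and TIF35-OE for GPH1. Of the kept higher genes with a promoter, 8 of 11 in the glycogen list and 5 of 6 in the trehalose list held a stress element. The other members of these lists were not counted, so a trait of the kept genes cannot be told apart from one of the lists. When the 3 libraries with shorter fragments were left out, 9 glycogen and 4 trehalose genes rose and none fell.

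**Figure D2:**
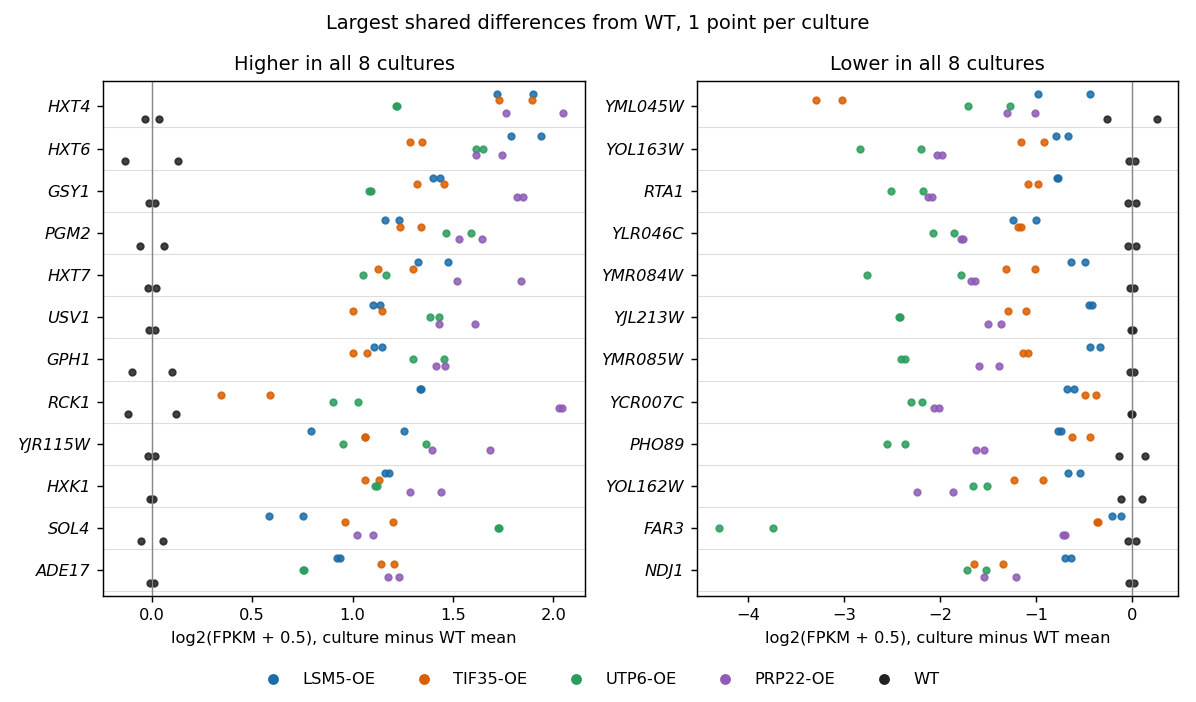
Culture values of the 12 largest kept higher (left) and 12 largest kept lower (right) genes of at least 400 bases, as log2(FPKM + 0.5) minus the WT mean, with 1 point per culture and the overexpression strains above WT within each row. Of the higher genes shown, HXK1 varies least over the strains (SD 0.12) and RCK1 most (SD 0.66), while FAR3 is far below WT only in UTP6-OE.

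Glucose uptake and phosphorylation showed some of the largest single differences. HXT4, a hexose transporter, had 574 and 506 FPKM in LSM5-OE, 509 and 572 in TIF35-OE, 358 and 357 in UTP6-OE and 636 and 522 in PRP22-OE, against 157 and 149.9 in WT (1.69 ± 0.32). It had the largest mean difference of the kept higher genes of at least 400 bases. The high-affinity transporters HXT7 (808 to 1392 FPKM, against 384 and 395 in WT, 1.35 ± 0.25) and HXT6 (125 to 196, against 55.8 and 46.3, 1.62 ± 0.23) are near-identical copies, so reads cannot be assigned to one of them with certainty. The transporter family did not move as a whole: 3 of 16 genes were kept higher and 3 lower, with HXT10, GAL2 and HXT5 the lower ones (-1.11, -0.64 and -0.71). Of 4 genes of hexose phosphorylation, 3 were kept higher and rose. The other, HXK2, the main hexokinase in ample glucose, fell but was not kept, with 1140 to 1703 FPKM in the overexpression cultures, against 1656 and 1723 in WT (-0.22 ± 0.24). HXK1, a hexokinase used more when glucose is short, had 716 and 706 FPKM in LSM5-OE, 659 and 691 in TIF35-OE, 683 and 687 in UTP6-OE and 856 and 769.8 in PRP22-OE, against 314 and 317 in WT (1.19 ± 0.12). Its level varied little among the strains beside its distance to WT. GLK1, glucokinase, was 0.49 ± 0.08 and its relative EMI2 0.58 ± 0.14 above WT. MTH1, a regulator of the HXT genes, had 96.5 to 180.0 FPKM in the overexpression cultures, against 77.3 and 69.8 in WT (0.92 ± 0.32). The glycolytic enzymes below this step lay near WT: of 21 genes, 1 was kept higher and 3 lower, 2 rose and 2 fell, and the median was -0.07.

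Genes of mitochondrial energy metabolism lay higher by smaller steps. Of 32 nuclear genes of the respiratory chain and ATP synthase, 14 were kept higher and none lower, and 15 rose and none fell, with a median of 0.28. ATP5, a stalk subunit of ATP synthase, had 600.0 and 648 FPKM in LSM5-OE, 606 and 665 in TIF35-OE, 759.7 and 763 in UTP6-OE and 652 and 629 in PRP22-OE, against 485 and 501 in WT (0.43 ± 0.13). COX5B, a subunit of cytochrome c oxidase, had 223 to 306 FPKM in the overexpression cultures, against 149.7 and 179 in WT (0.66 ± 0.17), and QCR6, of the cytochrome bc1 complex, 443 to 550.2, against 373 and 354 (0.42 ± 0.07). In this list 13 tested genes are under 400 bases long, of which 1 was kept. Of 17 genes of the TCA cycle, 8 were kept higher and 3 lower, and the same numbers rose and fell. MDH1, malate dehydrogenase, was among the most even members, with 329 to 392 FPKM over the 4 strains, against 264 and 258 in WT (0.46 ± 0.06). SDH2 was 0.36 ± 0.07 above WT, while CIT3, a minor citrate synthase, was below it (-0.71 ± 0.38). Its peroxisomal relative CIT2, a target of the retrograde pathway, had 843 and 783 FPKM in LSM5-OE, 664 and 704 in TIF35-OE, 408 and 417 in UTP6-OE and 566 and 508 in PRP22-OE, against 1174 and 1151 in WT (-0.97 ± 0.43). LSM5-OE was nearest to WT and UTP6-OE farthest. Mitochondrial ribosomal proteins, which serve the making of respiratory subunits, had 21 of 76 genes kept higher and 1 lower, with a median of 0.11, and 12 rose and 1 fell. MRPL20 (0.42 ± 0.12), MHR1 (0.38 ± 0.05) and MRPL37 (0.35 ± 0.13) had the largest differences of the kept members. Leaving out the 3 short-fragment libraries, the calls were 9 higher for the respiratory list, 6 for the TCA cycle and 3 for the mitochondrial ribosome.

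**Figure D3:**
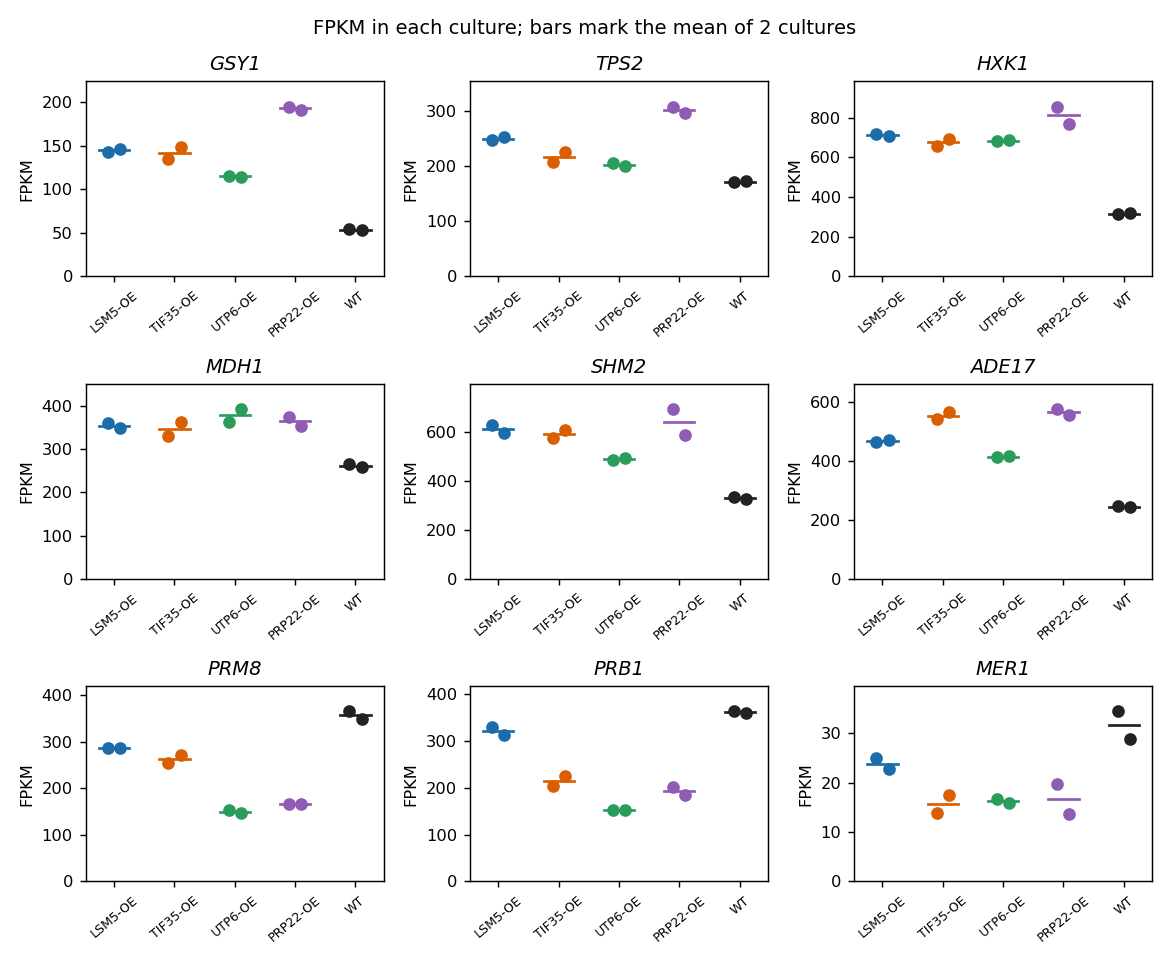
FPKM of 9 kept genes in each culture, with the mean of the 2 cultures as a bar and the overexpression strains left of WT. HXK1 lies above WT by a similar amount in all strains, while PRB1 and PRM8 lie farther below WT in UTP6-OE and PRP22-OE than in LSM5-OE.

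General stress genes were mixed among the strains. Of 39 genes, 14 were kept higher and 4 lower, 20 rose and 6 fell, and 29 differed among the 4 overexpression strains. That is a limma F test of contrasts without WT (adjusted p of at most 0.05), in which the WT cultures enter only the estimate of spread. Of all genes compared, 22.1% differed among the strains. HSP12, a membrane-associated stress protein, had 2571 and 2189 FPKM in LSM5-OE, 2561 and 2859 in TIF35-OE, 5515 and 6523 in UTP6-OE and 4381 and 3531 in PRP22-OE, against 1408 and 1370 in WT (1.34 ± 0.60). HSP12 is 330 bases long. CTT1, the cytosolic catalase, had 59.6 to 64.02 FPKM in LSM5-OE and TIF35-OE and 94.6 to 114 in UTP6-OE and PRP22-OE, against 41.9 and 45.8 in WT (0.86 ± 0.42). The transcription factor USV1 was more even, at 60.2 to 92.0 FPKM, against 29.5 and 30.1 in WT (1.28 ± 0.22). RCK1, a protein kinase of the oxidative stress response, had 55.0 and 55.3 FPKM in LSM5-OE, 27.4 and 32.6 in TIF35-OE, 40.7 and 44.2 in UTP6-OE and 89.2 and 90.2 in PRP22-OE, against 19.7 and 23.4 in WT (1.20 ± 0.66). SOL4, a lactonase of the pentose phosphate pathway, was highest in UTP6-OE, with 182 FPKM in both cultures and 82.4 to 126 in the other strains, against 52.7 and 56.9 in WT (1.13 ± 0.44). PNC1, the nicotinamidase, had 1542 to 2072 FPKM, against 1235 and 1247 in WT (0.55 ± 0.19). Of the 14 kept higher stress genes 11 held a stress element in the promoter window, and the other members of the list were not counted.

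Chaperones of the cytosol went the other way. Of 35 genes, 17 were kept lower and 1 higher, 12 fell and 1 rose, and the median was -0.11, with medians from -0.09 in LSM5-OE to -0.15 in PRP22-OE. BTN2, a factor that sorts misfolded proteins, had 179 and 199 FPKM in LSM5-OE, 186 and 175 in TIF35-OE, 127 and 114 in UTP6-OE and 84.5 and 88.8 in PRP22-OE, against 255 and 275 in WT (-0.95 ± 0.53), and its paralog CUR1 was at -0.51 ± 0.28. The kept lower members also held HSP82 and HSC82, the Hsp90 pair, SSA2, STI1 and SIS1 (-0.41, -0.17, -0.30, -0.30 and -0.26). The single higher member was SSE2, an Hsp110 protein with 109 to 149 FPKM, against 90.9 and 94.7 in WT (0.44 ± 0.20). After rescaling by the median of ratios, 10 chaperone genes were kept lower and 4 higher, and 9 fell and 5 rose. Oxidant defence was divided, with 6 of 32 genes kept higher, among them SOD1 and SOD2 (0.33 and 0.20), and 6 kept lower, among them GPX2 and GSH1 (-0.60 and -0.25).

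In amino acid synthesis, 24 of 67 genes were kept higher and 8 lower, and 24 rose and 6 fell, while the median of the list was 0.04, close to 0. SHM2, which makes glycine and one-carbon units in the cytosol, had 629 and 596 FPKM in LSM5-OE, 574 and 609 in TIF35-OE, 485 and 492 in UTP6-OE and 693 and 587 in PRP22-OE, against 334 and 326 in WT (0.81 ± 0.17). ARG1, argininosuccinate synthetase, had 452 and 428 FPKM in LSM5-OE, 707 and 743 in TIF35-OE, 554 and 566 in UTP6-OE and 566 and 511 in PRP22-OE, against 337 and 333 in WT (0.73 ± 0.30). HIS4, of histidine synthesis, had 358 to 470 FPKM in the overexpression cultures, against 258 and 254 in WT (0.68 ± 0.16), and other higher members were ARG3, LYS20, LYS9, ARO3 and HIS2. Of the 24 kept higher genes, 16 held the Gcn4 word in their promoter window. The word was not counted in the other members, so this share may be that of the whole list. SER3, which starts serine synthesis, was lower, at 385 and 399 FPKM in LSM5-OE, 294 and 312 in TIF35-OE, 199 and 196 in UTP6-OE and 261 and 246 in PRP22-OE, against 453 and 461 in WT (-0.72 ± 0.42). Branched-chain genes were among the lower ones, with BAT2 at -0.70, ILV5 at -0.37 and ILV3 at -0.23, although ILV6 (0.26) and LEU4 (0.13) were higher.

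Purine synthesis was also higher in part. Of 24 genes, 11 were kept higher and 4 lower, and the same numbers rose and fell. ADE17, which carries out the last steps to IMP, had 467 and 472 FPKM in LSM5-OE, 542 and 567 in TIF35-OE, 414 and 416 in UTP6-OE and 577 and 555 in PRP22-OE, against 247 and 244 in WT (1.02 ± 0.21). MTD1, a folate enzyme that supplies one-carbon units, was at 228 to 354 FPKM, against 178 and 166 in WT (0.76 ± 0.25). ADE1, ADE2, ADE4, ADE6, ADE8, ADE12 and ADE13 were kept higher by 0.20 to 0.69. The kept lower members were PRS1 and PRS3, which make the ribose precursor (-0.14 and -0.18), and 2 IMP dehydrogenases of the guanine branch. Of these, IMD2 was at 70.5 and 68.8 FPKM in LSM5-OE, 44.9 and 45.8 in TIF35-OE, 31.9 and 34.0 in UTP6-OE and 74.2 and 73.7 in PRP22-OE, against 88.1 and 92.8 in WT (-0.77 ± 0.54), and IMD4 was at -0.27. Their paralog IMD3 and GUA1, of the next step, were not kept and did not pass the test (0.05 and -0.10). IMD2 has near-identical relatives, so part of its reads may be shared with them. No pyrimidine gene of 13 was kept higher and 3 were kept lower, namely FUR4 (-0.36), PPR1 (-0.34) and the plasmid marker URA3 (-0.30). Without the 3 libraries with shorter fragments, 16 amino acid and 9 purine genes rose.

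**Figure D4:**
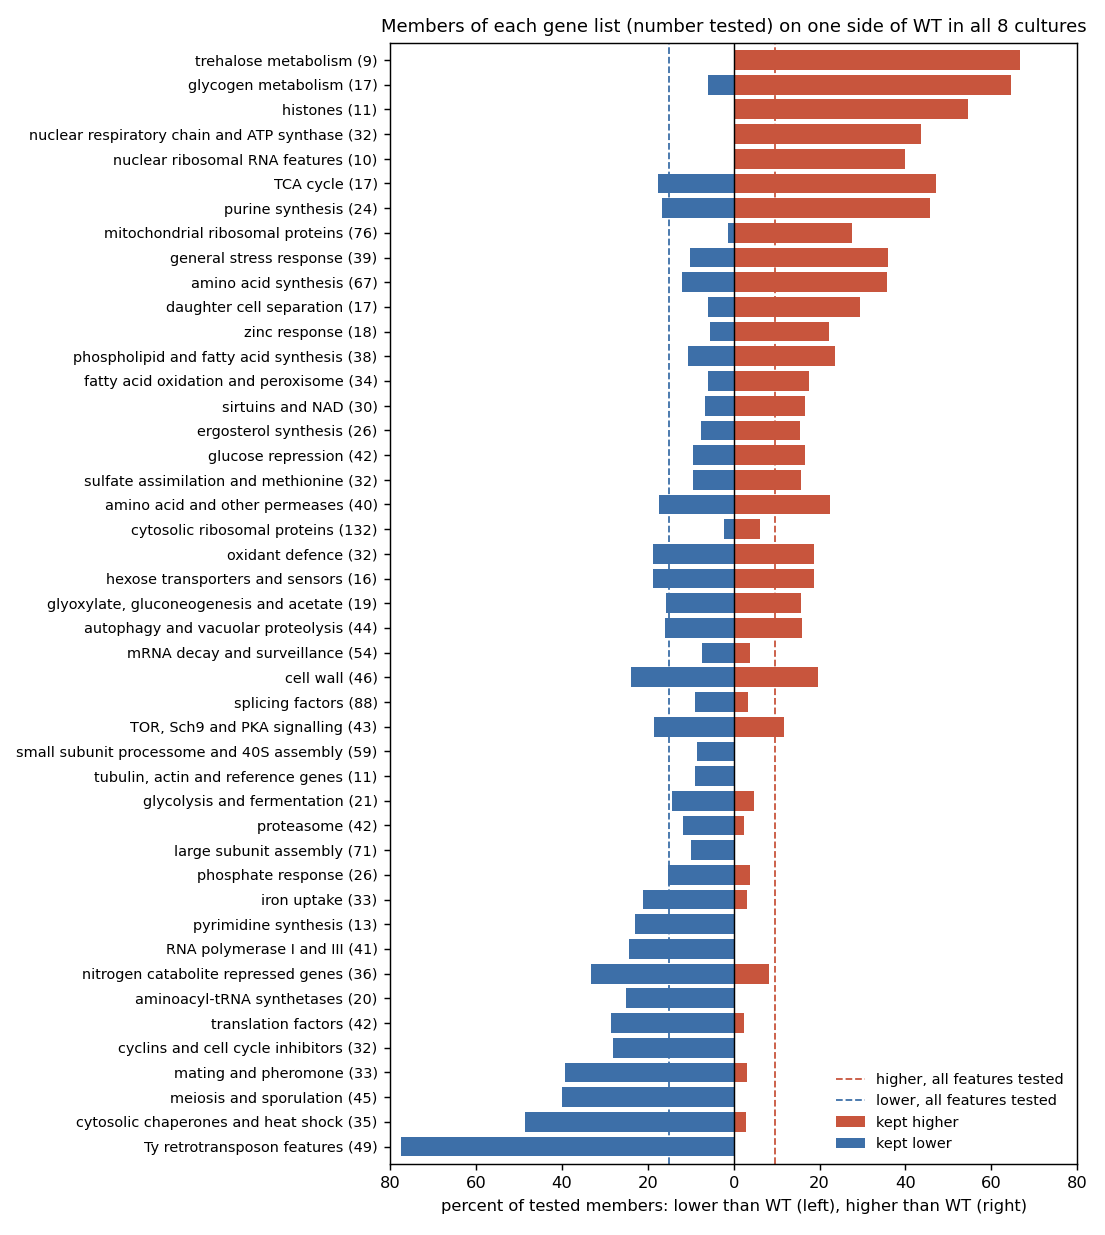
Percent of tested members of each gene list with at least 9 tested members that lay below WT (left, blue) or above WT (right, red) in all 8 overexpression cultures, with the same percentages over all 5768 features as dashed lines. Reserve carbohydrate and respiratory genes extend to the right, and Ty, chaperone, meiosis and mating genes extend to the left.

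Genes of the protein-making machinery, in which the plasmid genes themselves act, were mostly near WT. Of 132 cytosolic ribosomal protein genes, 8 were kept higher and 3 lower, and 2 rose and 3 fell. This direction depended on the scaling, since 20 were kept higher and 2 lower, and 17 rose and 2 fell, after rescaling by the median of ratios. Of 59 genes of the small subunit processome and 71 of large subunit assembly, none was kept higher and 5 and 7 were kept lower, shares under that of all genes. The calls were 0 higher and 14 lower for the small subunit and 0 higher and 5 lower for the large, or 4 higher and 4 lower for the large after rescaling. Before rescaling, the called lower share was 23.7% for the small subunit and 7.04% for the large, against 17.1% of all features compared. When the 3 short-fragment libraries were left out, 1 gene fell in each of these lists. The 2 lists varied among the strains, with 37 and 32 genes passing the F test, and their medians were 0.08 and 0.06 in UTP6-OE and negative in the other 3 strains. RNA polymerases I and III had 10 of 41 genes kept lower and none higher, and 12 fell and 1 rose. RRN7 and RRN11, subunits of the core factor of RNA polymerase I, were at -0.45 ± 0.14 and -0.52 ± 0.25. RRN7 had 10.8 to 14.6 FPKM in the overexpression cultures, against 18.2 and 17.5 in WT. RPA12, a subunit of the enzyme, had 133 to 206 FPKM, against 260.1 and 263 in WT (-0.59 ± 0.17), and is 378 bases long. Without the 3 libraries with shorter fragments, 12 polymerase genes were kept lower. The rule asks less there, so that count is no sign of stability. The list median was -0.07 without these libraries, against -0.09 with them. Of 42 translation factors, 12 were kept lower and 1 higher, and 6 fell and 3 rose, or 1 fell and 2 rose when the short-fragment libraries were left out. After rescaling, 5 were kept on each side and the median of the list, -0.05 before, was above 0. ANB1, the form of eIF5A made in low oxygen, had 17.9 to 43.2 FPKM, against 47.8 and 48.7 in WT (-0.87 ± 0.33). DED1, a helicase of initiation, was lower by a small gap, with 119 FPKM in the first LSM5-OE culture, against 120.4 and 123 in WT. Splicing factors had 3 of 88 genes kept higher, LSM5 among them, and 8 lower, and mRNA decay genes 2 of 54 higher and 4 lower, while rescaling turned both balances round, to 7 higher and 3 lower in each list. The 35S rRNA precursor feature RDN37-1 had 49.1 to 109 FPKM, against 44.4 and 48.1 in WT (0.69 ± 0.42), and RDN37-2 holds the same values. In PRP22-OE RDN37-1 was 0.17 above WT. Of 10 nuclear rRNA features, 4 were kept higher, namely these and the pair ETS1-1 and ETS1-2, and 6 were not kept. The summed level of the 10 differed between the WT cultures, at 1829 and 3039 FPKM.

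Mating and meiosis genes were lower. Of 33 mating and pheromone genes, 13 were kept lower and 1 higher, and 16 fell and none rose, with a median of -0.26. PRM8, a pheromone-regulated membrane protein, had 287 and 286 FPKM in LSM5-OE, 254 and 272 in TIF35-OE, 153 and 146 in UTP6-OE and 166 and 166 in PRP22-OE, against 365 and 349 in WT (-0.78 ± 0.47). FUS1, needed for cell fusion, had 11.1 to 16.6 FPKM, against 25.6 and 22.6 in WT (-0.76 ± 0.18), and PRM1 was at -0.73 ± 0.28. STE12, the transcription factor of this response, and FAR1, its cell cycle inhibitor, were at -0.26 and -0.36. Of 45 genes of meiosis and sporulation, a programme that haploid cells do not enter, 18 were kept lower and none higher, and 15 fell and none rose, with a median of -0.36. The median level of this list was 7.10 FPKM. MER1, a meiotic splicing factor, had 24.9 and 22.8 FPKM in LSM5-OE, 13.8 and 17.5 in TIF35-OE, 16.7 and 15.9 in UTP6-OE and 19.8 and 13.6 in PRP22-OE, against 34.5 and 28.8 in WT (-0.81 ± 0.28). GAS2 and CDA1, of the spore wall, were at -1.03 ± 0.32 and -1.10 ± 0.30. NDJ1, a meiotic telomere protein outside the list, had 8.73 to 19.1 FPKM, against 30.5 and 29.4 in WT (-1.29 ± 0.43). Without the 3 libraries with shorter fragments, 7 mating and 10 meiosis genes fell.

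Several lists of nutrient uptake had more lower than higher members, as did all features compared (15.03% kept lower and 9.52% kept higher). The kept lower share was 33.3% for nitrogen catabolite repression and 21.2% for iron uptake. Of 36 genes under nitrogen catabolite repression, 12 were kept lower and 3 higher, and 15 fell and 4 rose. GAP1, the general amino acid permease, had 56.9 and 50.9 FPKM in LSM5-OE, 41.7 and 52.3 in TIF35-OE, 58.0 and 66.0 in UTP6-OE and 62.7 and 59.4 in PRP22-OE, against 79.7 and 84.5 in WT (-0.56 ± 0.19). All 3 ammonium transporters, MEP1, MEP2 and MEP3, were kept lower (-0.46, -0.53 and -0.15). AGP1, another amino acid permease, was higher, at 115 to 151 FPKM, against 71.3 and 74.9 in WT (0.85 ± 0.17). PRB1, vacuolar protease B, had 329.9 and 314 FPKM in LSM5-OE, 204 and 225 in TIF35-OE, 152 and 152 in UTP6-OE and 201 and 185 in PRP22-OE, against 363 and 360.1 in WT (-0.77 ± 0.45), while the vacuolar proteases PEP4 and PRC1 were higher (0.30 and 0.33). Of 33 iron uptake genes, 7 were kept lower and 1 higher, but 18 fell, and 22 differed among the strains. The median of this list was 0.04 in LSM5-OE, against -0.55 in TIF35-OE, -0.54 in UTP6-OE and -0.17 in PRP22-OE. ENB1, a transporter of the siderophore enterobactin, had 98.4 and 93.7 FPKM in LSM5-OE, 49.2 and 54.4 in TIF35-OE, 29.6 and 32.8 in UTP6-OE and 62.8 and 57.5 in PRP22-OE, against 123 and 122 in WT (-1.14 ± 0.66). PHO89, a phosphate transporter, had 16.7 to 21.1 FPKM in LSM5-OE and TIF35-OE, 4.52 and 5.21 in UTP6-OE and 9.02 and 9.55 in PRP22-OE, against 31.6 and 26.2 in WT (-1.33 ± 0.88). Its list, the phosphate response, was near the background, with 4 of 26 genes kept lower (15.4%) and 1 higher, PHM8 (0.60 ± 0.38). The zinc response went the other way, with 4 of 18 genes kept higher and 1 lower. Of 32 genes of sulfate assimilation and methionine, 5 were kept higher and 3 lower, 6 rose and 12 fell, and 21 differed among the strains. After rescaling by the median of ratios, 8 rose and 9 fell. The sulfate transporters SUL1 and SUL2 were kept lower (-0.69 ± 0.61 and -0.48 ± 0.32), and STR3, of the path from cysteine to methionine, was kept higher (0.51 ± 0.28).

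In cell division, 9 of 32 genes of cyclins and their regulators were kept lower and none higher, and 11 fell and 2 rose. CLN3, the cyclin that starts the G1 programme, had 73.1 and 82.0 FPKM in LSM5-OE and 50.6 to 75.4 in the other strains, against 89.8 and 88.2 in WT (-0.49 ± 0.26), and its target factor SWI4 was at -0.39 ± 0.07. Leaving out the short-fragment libraries, 2 of these genes fell. Daughter cell separation genes were higher in 5 of 17 cases and lower in 1, and 7 rose and 2 fell. They included DSE2, at 469 to 608 FPKM, against 385 and 386 in WT (0.53 ± 0.10), and CTS1, chitinase, at 761 to 942, against 649.9 and 653 (0.39 ± 0.10). Of 11 histone genes 6 were kept higher and none lower, and 4 of the 6 are under 400 bases long. HHO1, the linker histone, which is longer, had 171 to 219 FPKM, against 158 and 161 in WT (0.32 ± 0.10).

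Ty retrotransposon features were kept lower in 38 of 49 cases, and 40 fell, with a median of -0.75. The summed level of these features was 2125 to 3111 FPKM in the overexpression cultures, against 4023 and 4012 in WT. YML045W, the largest, had 26.9 and 39.3 FPKM in LSM5-OE, 6.15 and 4.98 in TIF35-OE, 16.0 and 21.9 in UTP6-OE and 26.3 and 21.4 in PRP22-OE, against 44.5 and 63.9 in WT (-1.62 ± 1.07). Reads of such near-identical copies cannot be assigned to one copy with certainty. The Ty features have a median length of 5268 bases.

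Many of the largest lower genes are poorly characterised. RTA1, of a family of membrane proteins linked to resistance to toxic lipids, had 62.5 and 62.0 FPKM in LSM5-OE, 50.01 and 54.0 in TIF35-OE, 23.2 and 18.3 in UTP6-OE and 24.8 and 24.1 in PRP22-OE, against 109.9 and 103 in WT (-1.56 ± 0.78). YLR046C, of the same family, had 73.2 and 62.0, 64.4 and 65.7, 40.5 and 34.5, and 43.1 and 42.4 FPKM in these strains, against 152 and 143 in WT (-1.51 ± 0.42). For both genes UTP6-OE and PRP22-OE were the lowest strains. The neighbouring reading frames YMR084W and YMR085W were at -1.41 ± 0.73 and -1.34 ± 0.83, and the neighbours YOL162W and YOL163W at -1.33 ± 0.63 and -1.57 ± 0.83. YCR007C, of a family of membrane proteins, had 269 to 333 FPKM in LSM5-OE and TIF35-OE and 86.6 to 106 in UTP6-OE and PRP22-OE, against 431 and 428 in WT (-1.34 ± 0.94). The mean of FAR3, needed for arrest by pheromone, rests mainly on UTP6-OE, with 2.09 and 3.31 FPKM there and 30.6 to 46.7 in the other strains, against 52.1 and 49.0 in WT (-1.31 ± 1.82). YJR115W, an uncharacterised gene among the largest higher ones, had 41.8 to 78.1 FPKM, against 23.6 and 24.2 in WT (1.20 ± 0.24).

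Lists that did not stand far from the background included the proteasome, with 1 of 42 genes kept higher and 5 lower, ergosterol synthesis, with 4 of 26 higher and 2 lower, autophagy and vacuolar proteolysis, with 7 of 44 on each side, and TOR, Sch9 and PKA signalling, with 5 of 43 higher and 8 lower. Of 11 tubulin, actin and other reference genes, none was kept higher and 1 lower, and none was called. In all, 226 of the kept higher genes (41.2%) and 263 of the kept lower genes (30.3%) were in a list, against 28.1% of all features compared.

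Feature length and level moved with the direction. With the features in 4 bins of like number from short to long, the kept lower share was 6.88%, 12.2%, 14.5% and 26.7%, and the kept higher share 9.18%, 13.3%, 11.7% and 3.99%. With 4 bins of mean FPKM from low to high, the kept lower share was 21.8%, 18.4%, 10.3% and 9.64%, and the kept higher share 1.25%, 5.27%, 13.5% and 18.1%. The bin of longest features had a median difference of -0.06 in LSM5-OE, -0.21 in TIF35-OE, -0.14 in UTP6-OE and -0.07 in PRP22-OE. Within 30 kb of a chromosome end, 21.7% of 346 genes were kept lower and 4.62% higher, against 14.6% and 9.87% of the 5398 farther away. The part of length and level in the results of the Ty, meiosis and other lists was not tested.

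**Figure D5:**
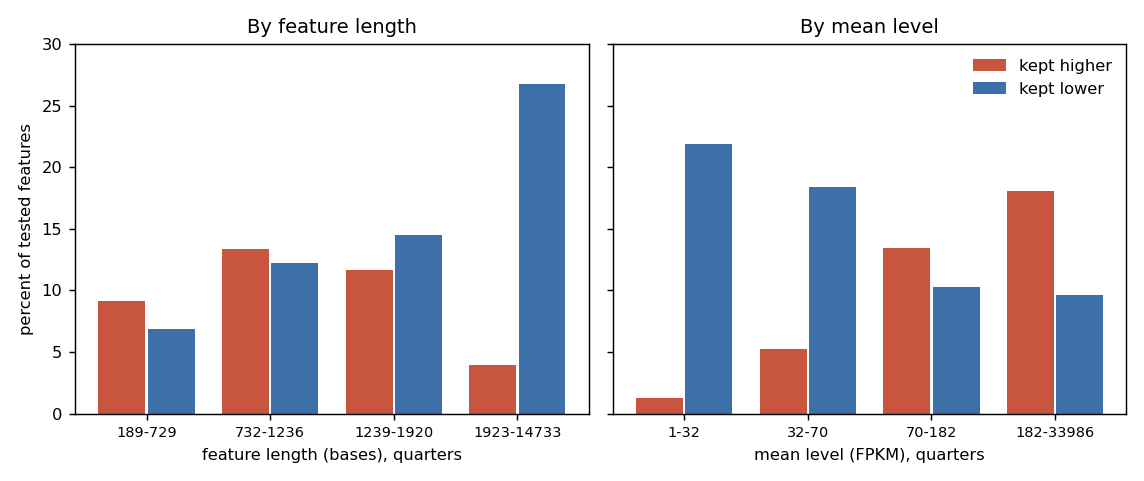
Percent of features kept higher (red) and kept lower (blue) in 4 bins of feature length (left) and of mean FPKM over the 10 libraries (right), with the range of each bin under its bars. Kept lower genes are most frequent among the longest features (26.7%) and kept higher genes among the highest levels (18.1%).

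Scaling set the balance of the directions. Of the called genes 37.0% were higher, against 56.1% after rescaling by the median of ratios, and of the kept genes 38.8%, against 55.5%. After rescaling, 546 of the 549 kept higher genes and 605 of the 867 kept lower genes were still kept, and none changed side. Among the 4 overexpression strains, 161 of the kept higher genes (29.3%) and 273 of the kept lower genes (31.5%) differed by the F test, against 22.1% of all genes compared. The number of all genes that differed was 1272, and it was 818 without the first TIF35-OE culture, 761 without the first UTP6-OE culture and 710 without the second UTP6-OE culture.

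At the limits of the rule, the kept genes nearest to 1 FPKM were YNL034W, with 0.86 to 1.14 FPKM in the overexpression cultures, against 2.19 and 1.39 in WT, and DAN1, with 1.14 to 2.26, against 3.28 and 3.63. CDA2, with 0 to 0.60 FPKM, against 0.92 and 0.68 in WT, and PAU20, listed at 0 in all 8, against 1.05 and 4.77, were the genes nearest below the minimum that met the rest of the rule, with means of 0.346 and 0.582 FPKM. Among genes kept by the smallest gaps, MGM101 had 211 to 249 FPKM, against 208 and 211 in WT, and TCP1, a subunit of the cytosolic chaperonin, 224 to 238, against 239 and 238. SIR4, of the silencing complex, was not kept because its highest culture equalled the lower WT culture, at 19.1 FPKM, with 14.9 to 19.1 in the overexpression cultures, against 20.4 and 19.1.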

How the data were processed

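RNA of 10 cultures was sequenced from TruSeq libraries as 150 bp paired-end reads. The study's methods name HISAT2, featureCounts, edgeR and DESeq2, while the submitters' processing notes list STAR, RSEM, edgeR and limma, so the program behind the values is not settled. FPKM is the unit of the values the authors deposited, and both deposited tables held the same value in all 58240 cells, with no read counts. Differences were taken on log2(FPKM + 0.5), a pseudocount that understates changes of low genes, for features whose mean reached 1 FPKM. Tests used limma 3.58.1 in R 4.3.3 (lmFit and eBayes with trend, 5 residual degrees of freedom, two-sided, Benjamini-Hochberg over all 5768 features) and were tested on simulated data. The contrast was the mean of the 4 strain coefficients minus WT. Depth and fragment length were estimated from low values, of which 75.3% to 92.9% lay within 0.15 of a whole fragment. Identifiers matched the annotation for 5775 features and symbols for 26 more. Python 3.11.15 with numpy 2.4.6, pandas 2.3.3, matplotlib 3.10.9 and scipy 1.17.1 served the other steps. The members and the gene lists were chosen with earlier results of these data known. Named genes were the 4 plasmid genes, the 12 largest kept on each side of at least 400 bases, up to 3 kept genes with the largest difference per list, genes next to the limits and strain markers. Other list members were named after their values were seen. Alternatives were pseudocounts of 0.1 and 1, no filter or at least 5 FPKM, rescaling, features of at least 400 bases, leaving out libraries, one value per strain, a replicate block, repeated features counted once and array weights.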

Additional observations from a re-analysis of the deposited data

Results flagged for a closer look

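Of the 12 largest kept higher and 12 largest kept lower genes, 23 also differed among the 4 overexpression strains (limma F test of contrasts without WT, adjusted over all 5768 features). The share that differed was 22.1% of all genes compared, 29.3% of the kept higher genes and 31.5% of the kept lower genes. The rule fixed the shared direction of the 24 genes. The WT cultures enter the F test only through the estimate of spread. These 24 genes were chosen on the same overexpression values, so the p values below are not independent of that choice. Among the higher genes the adjusted p was 0.0102 for HXT4, 0.0223 for HXT6, 0.000517 for GSY1, 0.0182 for PGM2, 0.0311 for HXT7 and 0.0108 for USV1. It was 0.0222 for GPH1, 0.000306 for RCK1, 0.0434 for HXK1, 0.00122 for SOL4 and 0.00151 for ADE17. Among the lower genes it was 0.00210 for YML045W, 0.00167 for YOL163W, 0.000145 for RTA1, 0.00188 for YLR046C, 0.0151 for YMR084W and 3.68e-05 for YJL213W. It was 3.71e-05 for YMR085W, 6.35e-06 for YCR007C, 0.000176 for PHO89, 0.00610 for YOL162W, 2.45e-05 for FAR3 and 0.0114 for NDJ1. The widest range was that of FAR3, whose difference from WT was -4.02 in UTP6-OE and -0.16 in LSM5-OE. For RCK1 it was 2.04 in PRP22-OE and 0.47 in TIF35-OE. YJR115W, the other gene of the 24, did not pass.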

How the results depend on the processing

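Rescaling by the median of ratios gave 935 genes called higher. Without the 3 libraries with shorter fragments the calls were 260 higher and 323 lower, and 62 among the strains. One value per strain gave 0 higher and 0 lower. On leaving out single cultures, the genes called higher numbered 240 to 642, those called lower 328 to 1198 and those that differed among the strains 710 to 1298, and the kept genes 560 to 839 higher and 882 to 1353 lower. The kept genes can only grow in number when a culture is left out, since the rule then asks less. Leaving out a WT culture gave the lowest calls in both directions. Array weights gave 776 higher and 1425 lower. Culture numbers did not pair the samples (r of culture differences between strains -0.36 to 0.43), and the culture number as a replicate block gave 529 higher, 925 lower and 1084 among the strains. Rescaling turned list medians above 0 for translation factors (0.0062), aminoacyl-tRNA synthetases (0.0067), fatty acid oxidation (0.015), glucose repression (0.019), mRNA decay (0.032), reference genes (0.034), ergosterol synthesis (0.036), oxidant defence (0.037) and the proteasome (0.046). Leaving out the 3 libraries did so for ergosterol synthesis (0.018), reference genes (0.016) and the proteasome (0.00073). Over single cultures left out, the ergosterol median was -0.031 to 0.0072. The causes were not tested. Over all alternatives, 794 list medians stayed within the spread of the strains, 29 moved beyond it and 5 changed sign from a median larger than that spread. Rescaling gave 14 of the 29 and 3 of the 5. Of the named genes, 2434 values kept their direction and call, 300 lost the call, 20 gained it and none changed sign. Depth limits the genes near 1 FPKM, and the values of features shorter than the fragments depend on the fragment length.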

Other observations

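Cell wall genes were divided in direction. Of 46 genes, 9 were kept higher and 11 lower, and 9 rose and 13 fell. GSC2, a glucan synthase used in stress and sporulation, had 121 and 125 FPKM in LSM5-OE, 84.5 and 91.2 in TIF35-OE, 49.4 and 51.4 in UTP6-OE and 69.0 and 65.4 in PRP22-OE, against 154 and 154 in WT (-0.98 ± 0.54). The chitin synthases CHS1, CHS2 and CHS3 were kept lower (-0.66, -0.27 and -0.25), and the mannoproteins CWP1, CWP2 and PST1 were kept higher (0.51, 0.31 and 0.33). CWP2 is 279 bases long and did not pass the test.

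Lipid synthesis had 9 of 38 genes kept higher and 4 lower, and 8 rose and 6 fell. INO1, which makes inositol phosphate, had 218 and 208 FPKM in LSM5-OE, 92.5 and 96.5 in TIF35-OE, 143 and 151 in UTP6-OE and 135 and 133 in PRP22-OE, against 234 and 233 in WT (-0.72 ± 0.48). Its repressor OPI1 was kept higher by 0.20. PSD1, the mitochondrial phosphatidylserine decarboxylase, had 219 to 259 FPKM in the overexpression cultures, against 171 and 168 in WT (0.48 ± 0.11).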
